A study of Saccharomyces cerevisiae with 8 samples.

Results

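The high-osmolarity glycerol (HOG) pathway is the signalling route by which budding yeast senses a rise in external osmolarity, and 10 of its genes are described here. They encode the sensors Sln1 and Sho1, the response regulator Ssk1, the kinases Ssk2, Ssk22, Ste11, Pbs2 and Hog1, and the tyrosine phosphatases Ptp2 and Ptp3. The genes were listed by systematic name for their place in the pathway, with earlier results of these data known. All 10 were found among the 6868 features of the table, and each had a value on all 8 arrays. No gene of the annotation used overlapped any of them.

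Under low osmolarity the sensor histidine kinase Sln1 keeps Ssk1 phosphorylated and inactive through a phosphorelay. After osmotic shock unphosphorylated Ssk1 activates the MAP kinase kinase kinases Ssk2 and Ssk22, while a second branch runs from Sho1 and mucin-like sensors to Ste11. Both branches converge on the MAP kinase kinase Pbs2, which phosphorylates the MAP kinase Hog1, and Ptp2 and Ptp3 remove the activating phosphate from its tyrosine. Much of this control acts on proteins already present, and the measurements here are of transcripts only.

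Transcript changes after NaCl were measured on 2-colour tiled arrays in 3 *Saccharomyces cerevisiae* strains, all of the W303 background. The *cdc14-3 snf1* strain (3 arrays) combines a temperature-sensitive allele of the mitotic exit phosphatase gene *CDC14* with loss of *SNF1*, which encodes a kinase known for its role in carbon source signalling. The *cdc14-3* strain (2 arrays, numbered replicates 2 and 3) carries the allele alone, and the *snf1* strain (3 arrays) lacks *SNF1* alone. All cultures grew in rich YPD medium at 25 °C, were moved to 35 °C to inactivate the Cdc14-3 protein where it was present, and then received 0.7 M NaCl for 30 min at that temperature. Before NaCl, the heat lasted 90 min for replicate 1 of *cdc14-3 snf1* and of *snf1*, and 2 h on the remaining 6 arrays. Wild-type cells were not analysed here, so every comparison is between mutants. The paper reports M-phase arrest of the temperature-sensitive mutant after the heat. The *snf1* strain does not carry that allele, so comparing it with either other strain may also compare different cell cycle stages. How far the arrest enters those comparisons was not tested.

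Each value is the log2 ratio of NaCl-treated over unstressed cells of the same strain on the same array, called the response below. A ratio measures a change and not a level, so genes cannot be ranked by abundance, nor can the *SNF1* deletion be checked from it. In whole cultures, a smaller number of cells with a transcript and less transcript per cell cannot be told apart. The unstressed cells were taken before NaCl was added, so treated cells had also spent the 30 min of NaCl as extra time at 35 °C. Every array had the same dye on the treated cells. An effect of the dye on a gene thus enters its response in each strain but drops out of a difference between strains. The labels number the replicates without saying that they came from separate cultures, so p-values measure the spread between these arrays, which may be technical.

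The values come without a stated log base, and base 2 is likely given how the study plots them. Their direction was read from known targets of the pathway. *GPD1* and *GPP2*, which encode enzymes of glycerol synthesis, *STL1*, which encodes a glycerol importer, and *CTT1*, which encodes the cytosolic catalase, all lay above 0 on every array, the lowest value being 1.76 for *CTT1* in *snf1* replicate 3. The mean of 131 ribosomal protein genes lay between -1.58 and -0.38 on the 8 arrays. The arrays with 90 min of heat stood apart from their strains. Over all features they correlated with each other at r = 0.904, whereas correlation with the 2 h arrays of the same strain was 0.785 and 0.844 for *cdc14-3 snf1* and 0.767 and 0.769 for *snf1*. Strain differences are therefore given with all arrays and with the 2 h arrays alone.

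The response of the HOG genes was uneven. *PTP3* rose in all 3 strains and *SSK22* fell in all 3. *PBS2* and *SSK22* responded differently in *cdc14-3* and *snf1* cells. With all arrays, *HOG1*, *STE11* and *PTP2* passed the test in no strain and in no difference between strains. Against 0, 3 of the 10 genes passed in *cdc14-3 snf1* cells (limma, Benjamini-Hochberg adjusted p under 0.05), compared with 46.1% of the 6135 features tested. *PTP3* was the one higher gene (20.6% of all features) and *SSK22* and *SHO1* the 2 lower ones (25.5%). In *cdc14-3* cells 2 of 10 passed (40.3% of all features), *PTP3* higher (18.3%) and *SSK22* lower (22.0%). In *snf1* cells 7 of 10 passed (51.3%), with *SSK1* and *PTP3* higher (24.3%) and *PBS2*, *SSK2*, *SSK22*, *SLN1* and *SHO1* lower (27.0%). With only 10 genes, nothing particular to the pathway is read from these counts. The median absolute response of the 10 genes was 0.32 in *cdc14-3 snf1*, 0.22 in *cdc14-3* and 0.54 in *snf1* cells, where that of all tested features was 0.39, 0.43 and 0.44.

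**Figure D1:**
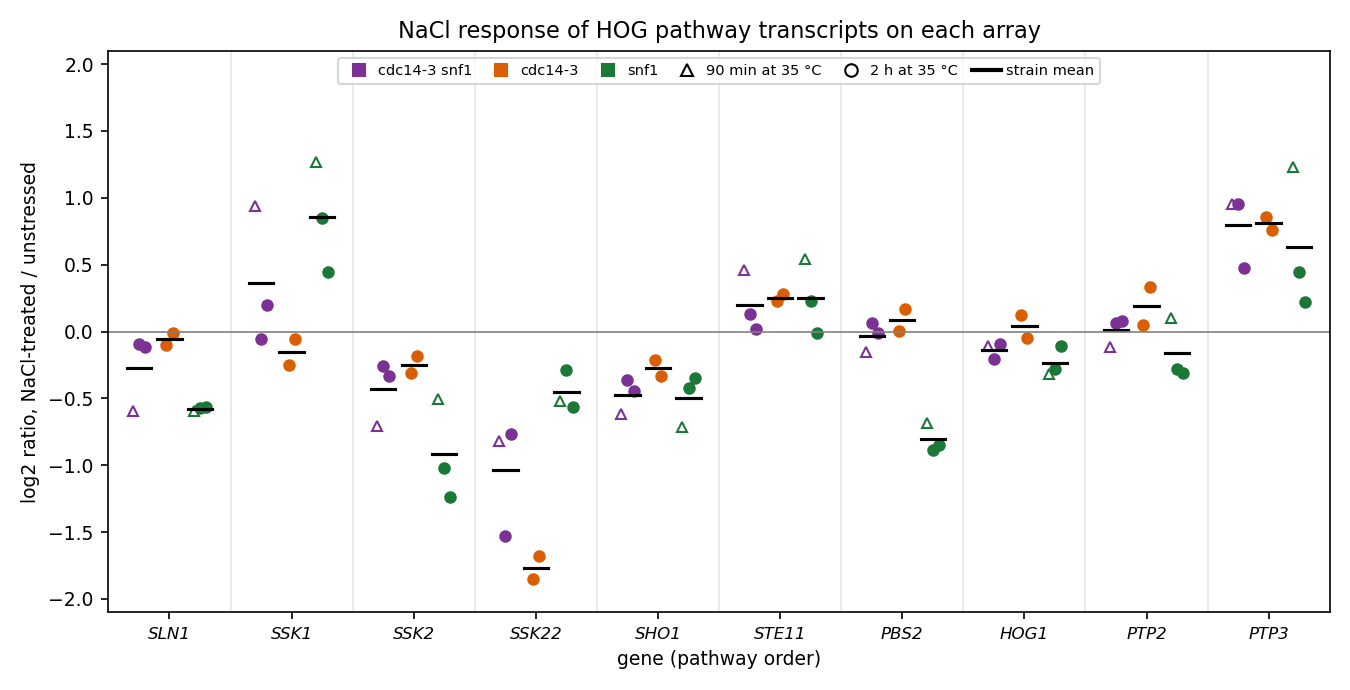
Log2 ratio of NaCl-treated over unstressed cells (vertical axis) for each of the 10 HOG genes on each array, with *cdc14-3 snf1*, *cdc14-3* and *snf1* from left to right within a gene. Open triangles are the arrays with 90 min at 35 °C, filled circles those with 2 h, and bars are strain means. *SSK22* reaches -1.85 and -1.68 in *cdc14-3* cells, and *PBS2* is low on the 3 *snf1* arrays only, between -0.89 and -0.69.

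*SLN1* (YIL147C) encodes the histidine kinase at the head of the first branch. Its log2 ratios were -0.59, -0.10 and -0.12 in *cdc14-3 snf1* cells (replicates 1 to 3), -0.10 and -0.01 in *cdc14-3* cells, and -0.59, -0.57 and -0.57 in *snf1* cells. The 3 *snf1* arrays and the 90 min array of *cdc14-3 snf1* were low and nearly equal, and the other 4 arrays lay close to 0. The *snf1* response of -0.58 ± 0.01 (SD, n = 3) passed the test (limma adjusted p = 0.00540). Between *cdc14-3* and *snf1* the difference was 0.52 with a standard error of 0.21 and did not pass with all arrays (limma adjusted p = 0.106). On the 2 h arrays alone it was 0.51 and passed (limma adjusted p = 0.0331). The arrays of *cdc14-3* and *snf1* did not overlap, which held for 52.2% of all features.

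*SSK1* (YLR006C) encodes the response regulator that Sln1 holds inactive. It gave 0.94, -0.05 and 0.20 in *cdc14-3 snf1* cells, -0.25 and -0.06 in *cdc14-3* cells, and 1.27, 0.85 and 0.45 in *snf1* cells. The 90 min array was the highest in both strains that have one, and both *cdc14-3* arrays lay below every other array. The mean was 0.36 ± 0.51 (SD, n = 3) in *cdc14-3 snf1* cells and -0.16 ± 0.14 (n = 2) in *cdc14-3* cells. *SSK1* rose in *snf1* cells, with a mean of 0.85 ± 0.41 (n = 3), or 1.81 times the unstressed transcript (limma adjusted p = 0.00756). *cdc14-3* minus *snf1* was -1.01, with a standard error of 0.33, and missed the threshold (limma adjusted p = 0.0587). It was -0.80 and passed on the 2 h arrays (adjusted p = 0.0210), and was -1.01 and passed without replicate 1 of *cdc14-3 snf1* (adjusted p = 0.0316). With heat time as a covariate the *cdc14-3 snf1* response was 0.49 and passed (limma adjusted p = 0.0134). This fit places each strain midway between the 2 heat times.

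*SSK2* (YNR031C) and *SSK22* (YCR073C) encode related kinases of the same step, and the strains fell in opposite orders for their transcripts. *SSK2* gave -0.71, -0.26 and -0.33 in *cdc14-3 snf1* cells, -0.31 and -0.19 in *cdc14-3* cells, and -0.50, -1.02 and -1.23 in *snf1* cells. It lay below 0 on all 8 arrays and was lowest on the 2 h arrays of *snf1*. In *cdc14-3 snf1* cells its mean of -0.43 ± 0.24 (n = 3) lay at the threshold (limma adjusted p = 0.05004) and passed without replicate 1 or replicate 3 of *snf1* (adjusted p = 0.0155 and 0.0430). The mean in *cdc14-3* cells was -0.25 ± 0.09 (n = 2). In *snf1* cells it fell to 0.529 of the unstressed transcript (mean -0.92 ± 0.37, n = 3, limma adjusted p = 0.00153). *cdc14-3* minus *snf1* was 0.67, with a standard error of 0.25 (limma adjusted p = 0.0918). Without replicate 1 of *snf1* that difference was 0.88 and passed (adjusted p = 0.0165), as did *cdc14-3 snf1* minus *snf1*, at 0.69 against 0.49 with all arrays (adjusted p = 0.0498 and 0.283).

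*SSK22* gave -0.82, -1.53 and -0.77 in *cdc14-3 snf1* cells, -1.85 and -1.68 in *cdc14-3* cells, and -0.52, -0.29 and -0.56 in *snf1* cells. Both *cdc14-3* arrays were lowest, the *cdc14-3 snf1* arrays came between, the *snf1* arrays were highest, and no strains overlapped. Of all features, 52.2% did not overlap between *cdc14-3* and *snf1*, 35.8% between *cdc14-3 snf1* and *cdc14-3*, and 19.0% between *cdc14-3 snf1* and *snf1*. *SSK22* fell to 0.487 of the unstressed transcript in *cdc14-3 snf1* cells, to 0.294 in *cdc14-3* cells and to 0.729 in *snf1* cells (limma adjusted p = 0.00106, 0.000194 and 0.0393). The call in *snf1* cells was lost when any 1 of the 3 *snf1* arrays was left out (adjusted p = 0.105, 0.0620 and 0.140 without replicates 1 to 3) or when either *cdc14-3* array was (0.0650 and 0.0584). The difference of *cdc14-3* from *snf1*, -1.31 with a standard error of 0.25, passed the test (limma adjusted p = 0.0118). Without *cdc14-3* replicate 2 or replicate 3 it was -1.22 and -1.40, close to its full size, but did not pass (adjusted p = 0.123 and 0.0595). Leaving out either array leaves 1 for that strain, which the fit assumes to vary like the arrays of the other strains, here and wherever a *cdc14-3* array is left out below.

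*SHO1* (YER118C) encodes the membrane protein of the second branch. It gave -0.62, -0.37 and -0.44 in *cdc14-3 snf1* cells, -0.21 and -0.33 in *cdc14-3* cells, and -0.71, -0.42 and -0.35 in *snf1* cells, below 0 on all 8 arrays. The 90 min array was again the lowest of its strain in both strains that have one. *SHO1* fell in *cdc14-3 snf1* cells (mean -0.48 ± 0.13, n = 3, limma adjusted p = 0.0112), a call that was lost without replicate 1 (adjusted p = 0.0639) or replicate 3 (0.0507) of that strain. Its mean in *cdc14-3* cells was -0.27 ± 0.09 (n = 2, limma adjusted p = 0.179). It fell in *snf1* cells (mean -0.49 ± 0.19, n = 3, limma adjusted p = 0.00861), a call lost when that strain was fitted alone (adjusted p = 0.0669). The difference between *cdc14-3 snf1* and *snf1* was 0.02, with a 95% interval of -0.37 to 0.41.

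*STE11* (YLR362W) encodes the kinase that the HOG pathway shares with the mating and filamentous growth pathways. It gave 0.46, 0.13 and 0.02 in *cdc14-3 snf1* cells, 0.23 and 0.28 in *cdc14-3* cells, and 0.54, 0.23 and -0.01 in *snf1* cells. The strains overlapped throughout, and the highest array was the 90 min array in both strains that have one. Its means were 0.20 ± 0.23 (n = 3) in *cdc14-3 snf1*, 0.25 ± 0.04 (n = 2) in *cdc14-3* and 0.25 ± 0.28 (n = 3) in *snf1* cells, and the 95% interval of *cdc14-3* minus *snf1* was -0.51 to 0.50. With heat time as a covariate the fitted responses were 0.46 in *cdc14-3* and 0.32 in *snf1* cells, and both passed (limma adjusted p = 0.0405 and 0.0342). That fit places each strain midway between the 2 heat times. Its *cdc14-3* value is an extrapolation above both arrays of that strain, which had 2 h of heat only.

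*PBS2* (YJL128C) encodes the MAP kinase kinase and scaffold on which both branches converge. It gave -0.15, 0.06 and -0.01 in *cdc14-3 snf1* cells, 0.01 and 0.17 in *cdc14-3* cells, and -0.69, -0.89 and -0.85 in *snf1* cells. The 3 *snf1* arrays lay well below the other 5, which spread around 0. Its means were -0.03 ± 0.11 (n = 3) in *cdc14-3 snf1* and 0.09 ± 0.11 (n = 2) in *cdc14-3* cells. In *snf1* cells *PBS2* fell to 0.572 of the unstressed transcript (mean -0.81 ± 0.11, n = 3, limma adjusted p = 0.000560). *cdc14-3* minus *snf1* was 0.89, with a standard error of 0.18, and passed (limma adjusted p = 0.0135). As for *SSK22*, the difference stayed near its size but did not pass with 1 *cdc14-3* array, at 0.97 without replicate 2 (adjusted p = 0.102) and 0.81 without replicate 3 (adjusted p = 0.104).

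The *cdc14-3 snf1* minus *snf1* difference of *PBS2* was 0.77, with a standard error of 0.16, and missed the threshold with all arrays (limma adjusted p = 0.110). It passed at 0.83 without replicate 1 of *snf1* (adjusted p = 0.0256), at 0.83 without replicate 1 of *cdc14-3 snf1* (adjusted p = 0.0414) and at 0.89 on the 2 h arrays alone (adjusted p = 0.0132). The 90 min arrays differed by 0.53 in the same direction, 1 array against 1.

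*HOG1* (YLR113W) encodes the MAP kinase at the end of the cascade, and its transcript responses were among the smallest of the 10. It gave -0.11, -0.20 and -0.10 in *cdc14-3 snf1* cells, 0.13 and -0.04 in *cdc14-3* cells, and -0.32, -0.28 and -0.11 in *snf1* cells. Its means were -0.14 ± 0.06 (n = 3), 0.04 ± 0.12 (n = 2) and -0.23 ± 0.11 (n = 3) in that order of strains, and none passed (limma adjusted p = 0.346, 0.833 and 0.106). The 95% interval of *cdc14-3* minus *snf1* was -0.12 to 0.68. The arrays of those strains did not overlap, which held for 52.2% of all features.

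*PTP2* (YOR208W) and *PTP3* (YER075C) encode the phosphatases that act on the same phosphotyrosine of Hog1. *PTP2* gave -0.11, 0.07 and 0.08 in *cdc14-3 snf1* cells, 0.05 and 0.33 in *cdc14-3* cells, and 0.10, -0.28 and -0.31 in *snf1* cells. *PTP3* gave 0.95, 0.95 and 0.48 in *cdc14-3 snf1* cells, 0.86 and 0.76 in *cdc14-3* cells, and 1.23, 0.45 and 0.22 in *snf1* cells. *PTP2* lay on both sides of 0 in 2 of the strains, while *PTP3* lay above 0 on all 8 arrays.

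*PTP3* rose to 1.73 times the unstressed transcript in *cdc14-3 snf1*, 1.75 times in *cdc14-3* and 1.55 times in *snf1* cells (limma adjusted p = 0.00798, 0.0213 and 0.0211). The strains overlapped, and the 95% interval of the *cdc14-3 snf1* minus *cdc14-3* difference was -0.69 to 0.66. In *cdc14-3 snf1* cells the mean was 0.79 with all 3 arrays and 0.72 without replicate 1 or replicate 2, where it just missed the threshold (adjusted p = 0.0525 and 0.0507). In *cdc14-3* cells it was 0.81 with both arrays and 0.76 and 0.86 with 1, which did not pass (adjusted p = 0.201 without replicate 2 and 0.123 without replicate 3). In *snf1* cells it was 0.63 with all 3 arrays and 0.33 without replicate 1, where the call was lost (adjusted p = 0.107), as it was with arrays weighted by their spread, at 0.41 (adjusted p = 0.0761), and when that strain was fitted alone (adjusted p = 0.0825).

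**Figure D2:**
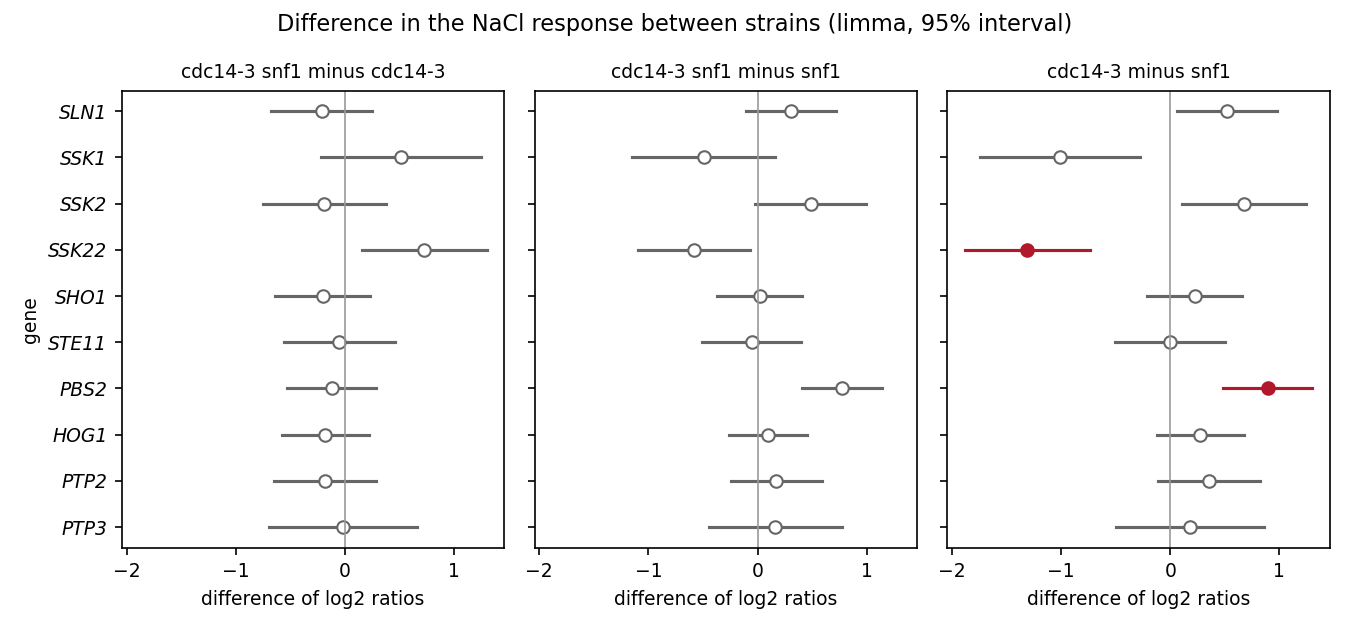
Difference between strains in the log2 response (horizontal axis) for each gene, with limma's 95% interval over all 8 arrays, for *cdc14-3 snf1* minus *cdc14-3*, *cdc14-3 snf1* minus *snf1* and *cdc14-3* minus *snf1* from left to right. Filled red points passed the adjusted threshold, *SSK22* at -1.31 and *PBS2* at 0.89 in the right panel, and open points did not.

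Between strains, HOG genes passed in *cdc14-3* minus *snf1* and in neither comparison of the double mutant with a single mutant. For *cdc14-3 snf1* minus *cdc14-3*, which asks what loss of *SNF1* changed in cells with the *cdc14-3* allele, 0 of the 10 genes passed in limma, beside 0.0489% of all features. *SSK22* alone had an unadjusted p under 0.05 (11.0% of all features), with a difference of 0.73 and a standard error of 0.25 (adjusted p = 0.359). The arrays did not overlap for 4 of the 10 genes, *HOG1*, *SSK1*, *SSK22* and *SHO1*, and for 35.8% of all features. For *cdc14-3 snf1* minus *snf1*, which asks what the allele changed in cells without *SNF1*, 0 of 10 passed, beside 0.00% of all features. *PBS2* and *SSK22* had unadjusted p-values under 0.05 (18.5% of all features) and were the 2 genes whose arrays did not overlap (19.0% of all features).

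For *cdc14-3* minus *snf1*, 2 of the 10 genes passed, beside 18.9% of all features. *PBS2* was higher (8.74% of all features) and *SSK22* lower (10.2%), and 5 of the 10 had an unadjusted p under 0.05 (34.8% of all features). The arrays did not overlap for 7 of the 10, all but *STE11*, *PTP2* and *PTP3*, and for 52.2% of all features. Without *cdc14-3* replicate 2 no feature of the table passed in this comparison, and without replicate 3 neither HOG gene did. The 3 comparisons share arrays and are not independent of each other.

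On the 2 h arrays alone, with 2 arrays per strain, more of the HOG genes passed, as did more of all features. In *cdc14-3* minus *snf1* these were *PBS2*, *SSK1*, *SSK2*, *SSK22* and *SLN1*, or 5 of 10, beside 37.4% of all features. In *cdc14-3 snf1* minus *snf1* they were *PBS2* and *SSK2* (0.83, limma adjusted p = 0.0173), or 2 of 10, beside 22.7%. In *cdc14-3 snf1* minus *cdc14-3* again 0 of 10 passed in limma, beside 0.722% of all features. The calls of *PTP3* and *SSK22* in the *snf1* response were lost, at 0.33 and -0.42 (adjusted p = 0.0932 and 0.0971). On these arrays *cdc14-3* minus *snf1* was 0.95 for *PBS2*, -0.80 for *SSK1*, 0.88 for *SSK2*, -1.34 for *SSK22* and 0.51 for *SLN1*. Arrays weighted by their spread gave the same counts. These were 5 of 10 beside 36.3% of all features in *cdc14-3* minus *snf1*, and 2 of 10 beside 17.8% in *cdc14-3 snf1* minus *snf1*. The weights were lowest for replicate 1 of *snf1* (0.25) and of *cdc14-3 snf1* (0.53), the arrays that the 2 h fit leaves out. All other weights lay between 0.92 and 2.51, so the weighted fit is not independent of the 2 h fit.

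**Figure D3:**
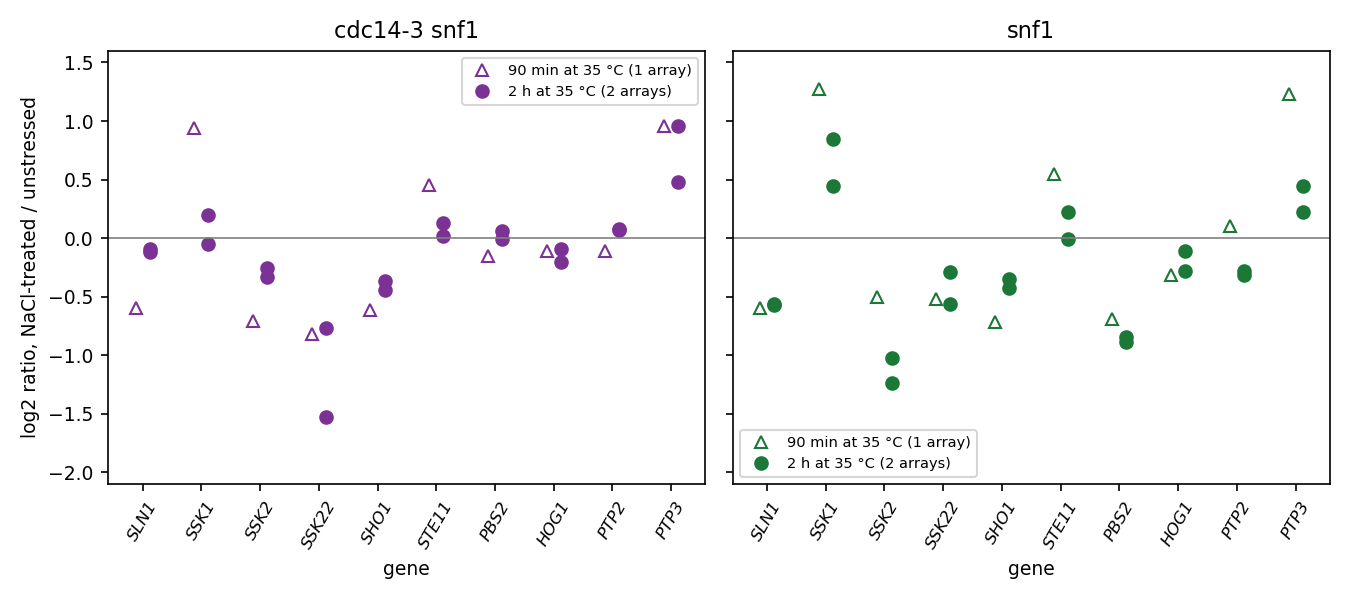
Log2 response of the 10 HOG genes (vertical axis) on the single 90 min array (open triangles) and the 2 arrays with 2 h at 35 °C (filled circles), for *cdc14-3 snf1* on the left and *snf1* on the right. *SSK1* and *STE11* are higher on the 90 min array in both strains, with *SSK1* at 0.94 and 1.27.

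The heat time was examined in its own right, after the values had been seen, as a coefficient of 2 h minus 90 min in a fit with strain. No feature of the 6135 passed for it (0.00%), and 3 of the 10 HOG genes had an unadjusted p under 0.05 (18.0% of all features). *SSK1* differed by -0.74, with a standard error of 0.19 (limma adjusted p = 0.134), *PTP3* by -0.57 (adjusted p = 0.241) and *STE11* by -0.41 (adjusted p = 0.242). The coefficient of *PBS2* had a 95% interval of -0.38 to 0.38. Heat time was carried by 1 array in each of 2 strains, and any other property of those arrays cannot be told apart from it.

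Genes were compared within arrays in 3 pairs, by exact sign-flip permutation tests over the 8 arrays (two-sided, adjusted over the 3 pairs). *PTP2* and *PTP3* share a step, as do *SSK2* and *SSK22*, while *SLN1* and *SHO1* encode the sensors of different branches. *PTP2* had a lower log2 ratio than *PTP3* on 8 of 8 arrays, with a mean difference of -0.75 ± 0.28 (SD, n = 8, exact p = 0.0078, the smallest that 8 arrays allow, adjusted p = 0.0234). The difference was -0.78 in *cdc14-3 snf1*, -0.62 in *cdc14-3* and -0.79 in *snf1* cells. On the 6 arrays with 2 h it was -0.63 and did not pass (exact permutation test, adjusted p = 0.0938). The unadjusted p behind it was the smallest that 6 arrays allow. A dye bias of either gene would enter this difference, since it is taken within arrays of one dye orientation. The test treats the 8 arrays as exchangeable, although they fall into 3 strains. How often other pairs of genes differ in the same direction on all 8 arrays was not examined.

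*SSK2* minus *SSK22* averaged 0.43 ± 0.92 (n = 8) and was above 0 on 6 of 8 arrays (exact permutation p = 0.227). The mean hides opposite signs, at 0.60 in *cdc14-3 snf1*, 1.52 in *cdc14-3* and -0.46 in *snf1* cells. *SLN1* minus *SHO1* averaged 0.10 ± 0.21 (n = 8, exact permutation p = 0.211, adjusted p = 0.227).

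**Figure D4:**
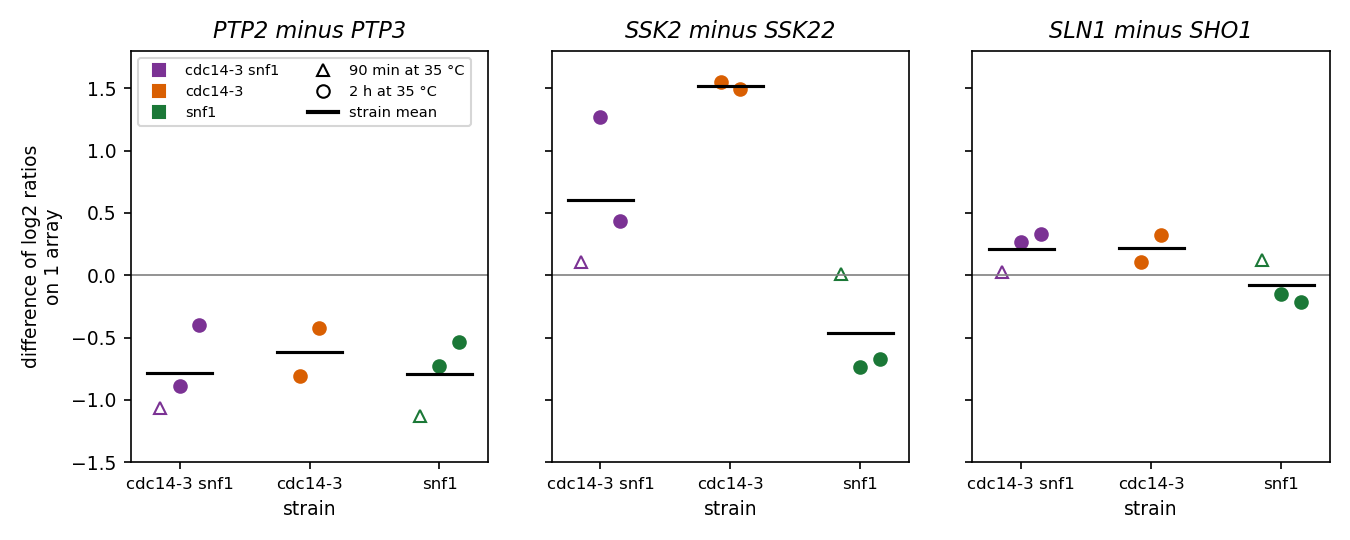
Difference of the log2 ratios of 2 genes on the same array (vertical axis) for *PTP2* minus *PTP3*, *SSK2* minus *SSK22* and *SLN1* minus *SHO1*, by strain; triangles are 90 min arrays, circles 2 h arrays and bars strain means. *PTP2* minus *PTP3* lies below 0 on all 8 arrays, between -1.13 and -0.40, and *SSK2* minus *SSK22* lies near 1.52 in *cdc14-3* cells.

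Across the 8 arrays, the responses of *PBS2* and *SSK2* ran together (Pearson r = 0.867) and those of *PBS2* and *SSK22* ran oppositely (r = -0.831). These are descriptions over 8 arrays that fall into 3 strains, and largely restate the strain differences above. Of 6096 features with a value on every array, the one closest in pattern to *PBS2* was *PGD1*, a subunit gene of the Mediator complex (r = 0.991). *PKC1*, which encodes the protein kinase C of the cell wall integrity pathway, was next (r = 0.985). The closest to *SSK22* were *YGR035C* (r = 0.980) and the ergosterol gene *ERG7* (r = 0.978), followed by *CDC14* itself (r = 0.976). For *SSK1* the closest was *PEX28*, a peroxisome gene (r = 0.996), and for *HOG1* it was *RFC4*, a subunit gene of the clamp loader of DNA replication (r = 0.959). These were picked as the highest of all features, and no test was made.

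Around the 10 genes, 13 further genes of the HOG pathway were examined. In *cdc14-3 snf1* cells 6 of 13 passed against 0 (2 higher, 4 lower), beside 46.1% of all features. In *cdc14-3* cells 5 passed (3 higher, 2 lower), beside 40.3%, and in *snf1* cells 8 (2 higher, 6 lower), beside 51.3%. Nothing particular to this list is read from these counts. *OPY2*, which encodes the membrane anchor of the Ste11 adaptor Ste50, had the highest mean of the list and rose in all 3 strains, with means of 0.64, 0.80 and 0.77 in *cdc14-3 snf1*, *cdc14-3* and *snf1* cells. *STE50* followed, with means of 0.27, 0.25 and 0.40, and passed in *snf1* cells. *PTC2*, a type 2C phosphatase gene, had the lowest mean and fell in all 3 strains, with means of -1.56, -1.36 and -1.58.

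With all arrays, no gene of this list passed in the differences of the double mutant from either single mutant in limma. At an unadjusted p under 0.05 there was 1 of 13 for *cdc14-3 snf1* minus *cdc14-3*, beside 11.0% of all features, and 4 for *cdc14-3 snf1* minus *snf1*, beside 18.5%. In *cdc14-3* minus *snf1* 3 of 13 passed, all higher, beside 18.9% of all features in either direction and 8.74% higher. *MSB2*, which encodes a mucin-like osmosensor of the Sho1 branch, gave -1.06, -0.02 and 0.23 in *cdc14-3 snf1* cells, 0.62 and 0.71 in *cdc14-3* cells, and -1.13, -1.33 and -1.19 in *snf1* cells. Its 2 h arrays of *cdc14-3 snf1* lay between the other strains and its 90 min array lay beside *snf1*. *cdc14-3* cells exceeded *snf1* cells by 1.88 (limma adjusted p = 0.00845). *HKR1*, the gene of the other mucin-like sensor, differed by 0.96 (adjusted p = 0.0377), with means of -0.69, -0.48 and -1.44 in *cdc14-3 snf1*, *cdc14-3* and *snf1* cells. *RCK2*, which encodes a kinase that Hog1 activates, differed by 0.75 (adjusted p = 0.0363), with means of 0.30, 0.50 and -0.25. With 1 *cdc14-3* array none of these 3 differences passed: without replicate 2 and replicate 3 in turn the adjusted p was 0.0920 and 0.0595 for *MSB2*, 0.189 and 0.173 for *HKR1*, and 0.263 and 0.111 for *RCK2*. *HKR1* and *RCK2* also missed the threshold without replicate 2 or 3 of *snf1*, and *RCK2* without replicate 3 of *cdc14-3 snf1*. Whichever array was left out, the difference stayed between 1.82 and 1.93 for *MSB2*, 0.86 and 1.06 for *HKR1* and 0.63 and 0.87 for *RCK2*. On the 2 h arrays alone, *MSB2*, *HKR1*, *PTC1* and *RCK2* passed in *cdc14-3 snf1* minus *snf1*, beside 22.7% of all features. Their differences were 1.36, 1.11, 0.70 and 0.70 (limma adjusted p = 0.00882, 0.0104, 0.0302 and 0.0403). The same genes passed there in *cdc14-3* minus *snf1* (37.4% of all features), and none of the list in *cdc14-3 snf1* minus *cdc14-3* (0.722%).

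Of 11 kinase and phosphatase genes of other MAP kinase pathways, 10 were tested, since *SMK1*, the sporulation MAP kinase gene, had no value on *cdc14-3* replicate 2. With all arrays, none passed in limma in *cdc14-3 snf1* minus *cdc14-3* or in *cdc14-3 snf1* minus *snf1*. At an unadjusted p under 0.05 there were 0 and 3, beside 11.0% and 18.5% of all features. In *cdc14-3* minus *snf1*, 3 of the 10 passed, beside 18.9% of all features. *SLT2* and *BCK1*, a MAP kinase and a MAP kinase kinase kinase gene of cell wall integrity, were higher by 0.95 and 0.79 (limma adjusted p = 0.0156 and 0.0368). *STE7*, the MAP kinase kinase gene of mating, was lower by 0.78 (difference -0.78, adjusted p = 0.0463). These differences did not pass with 1 *cdc14-3* array either (limma adjusted p between 0.101 and 0.267), although that of *SLT2* stayed between 0.82 and 1.08 whichever array was left out. *BCK1* was also lost without replicate 2 or 3 of *snf1* or replicate 3 of *cdc14-3 snf1* (range of the difference 0.66 to 0.95), and *STE7* without replicate 1 or 2 of *snf1* or replicate 2 or 3 of *cdc14-3 snf1* (-0.90 to -0.63). On the 2 h arrays alone, *BCK1*, *SLT2* and *FUS3* passed in *cdc14-3 snf1* minus *snf1*, beside 22.7% of all features. Their differences were 0.95, 0.69 and -0.69 (limma adjusted p = 0.0129, 0.0403 and 0.0329). There *BCK1*, *SLT2*, *FUS3* and *STE7* passed in *cdc14-3* minus *snf1* (37.4%), and none in *cdc14-3 snf1* minus *cdc14-3* (0.722%). With all arrays, *SDP1*, a phosphatase gene, rose in all 3 strains with means of 1.24, 1.21 and 1.69 in *cdc14-3 snf1*, *cdc14-3* and *snf1* cells. *SMK1* had means of 1.16 in *cdc14-3 snf1* and 1.74 in *snf1* cells, and its value was 0.68 on the *cdc14-3* array that measured it. At the low end, *MSG5*, also a phosphatase gene, fell in all 3 strains, and *FUS3*, the mating MAP kinase gene, fell in *cdc14-3 snf1* and *cdc14-3* cells (means -0.66 and -0.76), against a mean of -0.15 in *snf1* cells that did not pass.

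**Figure D5:**
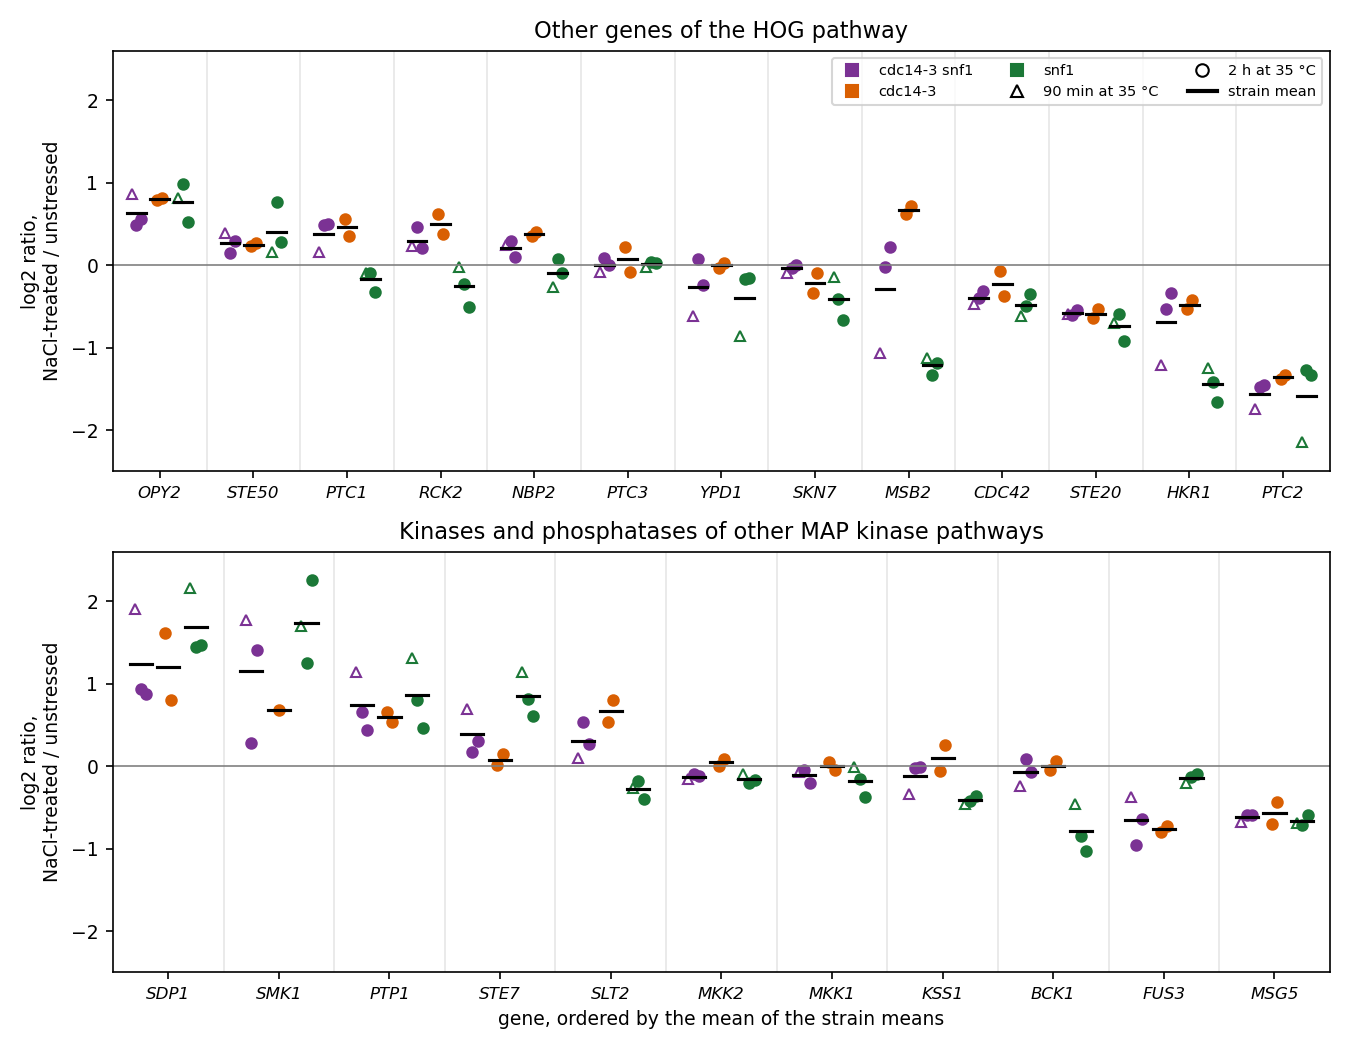
Log2 response on each array (vertical axis) of the 13 other HOG pathway genes (top) and of 11 genes of other MAP kinase pathways (bottom), ordered by the mean of the strain means, with *cdc14-3 snf1*, *cdc14-3* and *snf1* from left to right within a gene and bars at strain means. *MSB2* shows the widest separation of *cdc14-3* (0.62 and 0.71) from *snf1* (-1.33 to -1.13).

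The 4 targets were chosen as genes known to respond to NaCl. Their larger mean responses than those of the 10 HOG genes therefore say nothing of targets in general. *STL1* averaged 6.73 ± 0.60 (n = 3) in *cdc14-3 snf1*, 7.50 ± 0.01 (n = 2) in *cdc14-3* and 6.43 ± 0.60 (n = 3) in *snf1* cells, and *GPD1* averaged 3.50 ± 0.21, 3.55 ± 0.08 and 3.53 ± 0.66 in the same order. With all arrays, only *CTT1* of the 4 targets passed in a difference, at 3.02 for *cdc14-3* minus *snf1* (limma adjusted p = 0.0233). That call was lost, like every other one in that comparison, without *cdc14-3* replicate 2. On the 2 h arrays alone, *CTT1* again was the only target to pass, in all 3 differences. *cdc14-3 snf1* minus *cdc14-3* was -2.40 (limma adjusted p = 0.0398, 0.722% of all features passing). *cdc14-3 snf1* minus *snf1* was 1.54 (0.0219, 22.7%) and *cdc14-3* minus *snf1* 3.95 (0.000602, 37.4%). With all arrays the *CTT1* means were 3.72 ± 0.22, 6.21 ± 0.17 and 3.19 ± 1.68 in the same order of strains, the *snf1* values being 5.04, 2.78 and 1.76. By comparison, the means of the 10 HOG genes in any strain lay between -1.77 and 0.85.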

How the data were processed

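For 2-colour tiled arrays the authors deposited log2 ratios, 1 for each feature on an array, normalized by steps described only by reference, and how probes were combined per feature is not given in the sources used here. Each array's median was within 0.001 of 0. Values were used as deposited. The fit took the 6135 features measured on 2 or more arrays per strain and was made in limma 3.58.1 (R 4.3.3), with 1 mean per strain over all 8 arrays, lmFit, eBayes and Benjamini-Hochberg adjustment over the features tested at 0.05. The script was tested on simulated data. Gene symbols came from a RefSeq table (assembly R64), which 5984 features matched. The genome build behind the values is not given in the sources used here, so no coordinates are given.

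Named genes were all 10 members with every array's value, 4 targets that give the direction, and, of 2 further lists, genes called in a difference between strains and the 2 highest and 2 lowest by mean response. The closest patterns were ranked by Pearson r. Members, lists and tests were chosen with earlier results of these data known. Alternatives were array weights, heat time as a covariate, 2 h arrays only, a replicate block, only the strains compared, other filters on missing values, arrays scaled to one spread, robust eBayes and each array left out. The heat time coefficient was added after the data were seen.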

Additional observations from a re-analysis of the deposited data

Results flagged for a closer look

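The NaCl response differed between *cdc14-3* and *snf1* cells by a limma contrast (adjusted p under 0.05) for 2 of the 10 HOG genes, *PBS2* at 0.89 and *SSK22* at -1.31 (*cdc14-3* minus *snf1*, log2 scale). The same test passed for 6 genes of the further lists, *MSB2* at 1.88, *HKR1* at 0.96, *RCK2* at 0.75, *SLT2* at 0.95, *BCK1* at 0.79 and *STE7* at -0.78. None of the 8 passed when either *cdc14-3* array was left out, which leaves 1 array for that strain, assumed to vary like those of the other strains. Over every left-out array the differences kept their sign and lay between 0.81 and 0.97 for *PBS2*, -1.40 and -1.22 for *SSK22* and 1.82 and 1.93 for *MSB2*. In this comparison 18.9% of all features passed. Groups of 2 or 3 arrays are too small for a search for single outlying arrays.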

How the results depend on the processing

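Of the 9 alternatives that keep or restrict arrays by a rule, the number of HOG genes called kept within 1.5 times its main value except in 5 cases. In the *snf1* response 4 genes passed when only that strain was fitted (35.6% of all features), against 7 (51.3%), and the calls lost were *SSK22*, *SHO1* and *PTP3* (adjusted p = 0.0772, 0.0669 and 0.0825). In *cdc14-3 snf1* minus *snf1*, 2 passed with array weights (17.8% of all features) and 2 on the 2 h arrays, against 0. In *cdc14-3* minus *snf1*, 5 passed with array weights (36.3%) and 5 on the 2 h arrays, against 2. The weights were lowest for the arrays that the 2 h fit leaves out, so these settings are not independent of each other. Leaving out each array in turn gave 1 to 4 genes in the *cdc14-3 snf1* response (33.9% to 52.9% of all features), 1 to 2 in *cdc14-3* (14.0% to 47.8%) and 5 to 7 in *snf1* (40.4% to 51.0%). It gave 0 to 0 in *cdc14-3 snf1* minus *cdc14-3* (0.00% to 1.23%), 0 to 2 in *cdc14-3 snf1* minus *snf1* (0.00% to 12.0%) and 0 to 3 in *cdc14-3* minus *snf1* (0.00% to 31.3%). *PTP2* minus *PTP3* was -0.63 on the 2 h arrays and no longer passed. Its unadjusted p there was already the smallest that so few arrays allow, so the pair could not have passed by itself. With 1 array left out the difference lay between -0.80 and -0.69. The pairs were not run under array weights, the covariate, the block or the filters, which need a fit. Why a count moved was not tested.

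Over 540 values of single genes under these alternatives, 502 kept their direction and side of the threshold, 18 newly passed, 8 no longer passed and 12 changed sign, all 12 of them not called. Responses of *cdc14-3* under the covariate are extrapolated, since that strain had 2 h arrays only. Of the 12 changes of sign, 2 came under the block, given with it below. The other 10 were *PBS2* in the *cdc14-3 snf1* response (0.028, 2 h arrays), *SSK1* in the *cdc14-3* response (0.22 with heat time as a covariate), *SHO1* in *cdc14-3 snf1* minus *snf1* (-0.031 with array weights, -0.019 on 2 h arrays, -0.065 with scaled arrays), *STE11* in *cdc14-3* minus *snf1* (0.12 with array weights, 0.13 with the covariate, 0.14 on 2 h arrays, 0.055 with scaled arrays) and *PTP3* in *cdc14-3 snf1* minus *cdc14-3* (0.0086 with scaled arrays).

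With 1 array left out, 15 of 480 such values changed sign. They lay in these ranges: *HOG1* -0.045 to 0.13 in the *cdc14-3* response, and *PBS2* -0.081 to 0.028 and *PTP2* -0.024 to 0.073 in the *cdc14-3 snf1* response. *SHO1* lay at -0.089 to 0.092, *STE11* at -0.184 to 0.092 and *PTP3* at -0.043 to 0.462 in *cdc14-3 snf1* minus *snf1*. In *cdc14-3 snf1* minus *cdc14-3*, *STE11* lay at -0.178 to 0.042 and *PTP3* at -0.094 to 0.144, and in *cdc14-3* minus *snf1* they lay at -0.134 to 0.142 and -0.028 to 0.476.

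The labels share replicate numbers between strains, but the numbers were not treated as pairs. Deviations of same-numbered arrays correlated at 0.159, 0.041 and 0.205 between *cdc14-3 snf1* and *snf1*, where those of different-numbered arrays lay between -0.231 and 0.103. Same-numbered arrays correlated at 0.264 and 0.094 between *cdc14-3 snf1* and *cdc14-3*, and at 0.024 and -0.212 between *cdc14-3* and *snf1*. The 2 *cdc14-3* arrays deviate equally and oppositely from their mean, so their correlations with any other array differ only in sign. With the replicate block, 3, 2 and 7 HOG genes passed in the responses of *cdc14-3 snf1*, *cdc14-3* and *snf1*, as without it. The shares of all features were 47.7%, 42.2% and 53.0%. In *cdc14-3 snf1* minus *cdc14-3*, *cdc14-3 snf1* minus *snf1* and *cdc14-3* minus *snf1*, 0, 0 and 2 passed, also as without it. There the shares of all features were 0.0326%, 0.163% and 14.5%. Under the block *SSK1* in the *cdc14-3* response was 0.092 and *STE11* in *cdc14-3* minus *snf1* was 0.13, both with changed sign. The block places each strain at the mean of the 3 replicate numbers, although *cdc14-3* had no replicate 1. The small number of arrays limits every comparison.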
